A study of Mus musculus with 2 samples.

Results

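High glucose cells are single mouse muscle stem cells kept in culture for 96 h at 25 mM glucose. They were the 114 wells that the deposited well sheet labels as high glucose, and 113 of these wells were kept because they held at least 500 gene counts and 250 detected genes. The 1 well left out held 8 gene counts and 0 counts of ERCC spike-ins, the synthetic RNAs added to each well. The 113 cells were part of 456 kept in the whole series. The other cells were 102 cells taken fresh from muscle (labelled quiescent and called freshly isolated here), 120 cells grown for 96 h with 5 mM glucose and 121 grown for 96 h with 10 mM galactose. All 3 cultured groups received DMEM with 1 mM sodium pyruvate, fetal bovine serum, horse serum, chick embryo extract, bFGF and antibiotics. Cells were sorted by FACS into plates, and polyadenylated RNA was tagged well by well with a modified CEL-Seq2 protocol. High glucose and freshly isolated cells shared plate 1, low glucose and galactose cells shared plate 2, and each condition had its own plate rows. Each plate was deposited as 1 sample, so no condition had a replicate sample. The strain, sex, age and number of mice, and whether animals were pooled, were not found in the labels.

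Muscle stem cells lie under the sheath of the muscle fibre and are quiescent until injury or isolation activates them. On activation they make the myogenic factors Myod1 and Myf5, enlarge, enter the cell cycle and become myoblasts, while Pax7 marks the stem cell state. Culture medium for myoblasts commonly holds glucose at a level above that of blood, and growth in such medium involves glycolysis, ribosome production and stress response pathways that single cells can use to different degrees.

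The depth of a cell sets how well its genes are measured. High glucose cells held 868 to 18844 gene counts (median 6747) and 645 to 5567 genes (median 3191), and their pool held 887611 counts. The 6 plate rows of high glucose held 14 to 22 cells each, and the median count per cell ran from 4725 in row H to 9641 in row K. Gene counts per ERCC count had a median of 57.0 and ran from 7.48 to 182 across the cells, and transcripts of mitochondrial genes took 0.309% to 13.5% of a cell's counts (median 1.35%). The plates used the same barcode set, with 200 barcodes in common among 216 and 241 wells. Medians of gene counts per cell were 2536 in freshly isolated, 13371 in low glucose and 14496 in galactose cells.

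Levels are given as counts per 1000000 gene counts of the pool (CPM) with an exact Poisson 95% interval, and single cells as counts per 10000 of the cell's own gene counts. Intervals cover counting error only. With each condition in only 1 sample there is no replicate check, cells are not replicates, and no test between conditions was run.

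Of 20 muscle stem cell and myoblast markers 19 had a count, but only 7 had a mean of at least 1 count per cell. They summed to 2715 CPM, against 7705 CPM in the freshly isolated pool, and Heyl had 0 counts, Des 1, Ncam1 3 and Cxcr4 5. Myod1, the myogenic transcription factor of activated cells and myoblasts, had a count in 93.8% of cells, with 0 counts per 10000 in the lowest cell, a median of 5.41 and 51.0 in the highest. Myf5, a related myogenic factor, had a count in 60.2% of cells, and Pax7, the factor that marks the stem cell state, in 26.5%. Their pool levels were 705 CPM for Myod1 (95% interval 651 to 763), 286 CPM for Myf5 (252 to 324) and 56.3 CPM for Pax7 (41.8 to 74.3). The freshly isolated pool on the same plate held 2446, 394 and 119.7 CPM of Myod1, Myf5 and Pax7. Sdc4, a cell surface proteoglycan of these cells, stood at 436 CPM. Genes of differentiated and contractile muscle were scarce: 12 such genes had a row, their summed level was 122 CPM, and Mef2a, a transcription factor that other cells also use, gave 76.6 CPM of it.

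Markers of other cell types had lower sums than in the freshly isolated pool for the endothelial, fibro-adipogenic, smooth muscle and glial lists, and higher ones than in the plate 2 pools for these 4. Summed levels were 74.4 CPM for 10 endothelial markers (30.2 to 114 across plate rows), 10.1 CPM for 4 immune markers, 6.76 CPM for 3 glial markers and 7.89 CPM for 2 tendon cell markers. For 5 fibro-adipogenic markers the sum was 135 CPM, of which Col3a1 gave 126 CPM, and Dcn and Clec3b had 0 counts. For 9 smooth muscle and pericyte markers it was 192 CPM, of which Acta2, an actin that myoblasts also make, gave 162 CPM. A well held 3 or more endothelial markers in 3 cells and 3 or more smooth muscle markers in 1 cell. In freshly isolated, low glucose and galactose pools the sums were 208, 9.23 and 7.86 CPM for endothelial, 1091, 39.2 and 32.4 CPM for fibro-adipogenic and 549, 74.4 and 61.9 CPM for smooth muscle markers. Without the 4 wells with 3 or more such markers, the counts of variable genes and of nuclear gene pairs given further on were 659 in place of 672 and 38 in place of 39.

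The 6 genes named as marks of the condition spanned the p53 response, lipid storage, the lysosome, cytokine signalling and redox defence, and none was at a uniform level across cells. Mdm2, the ubiquitin ligase that p53 induces and that degrades p53, had a pool level of 1507 CPM (1428 to 1590). Across single cells Mdm2 ran from 0 to 60.6 counts per 10000 with a median of 11.7, and plate rows held 1016 to 1861 CPM. Phlda3, a p53 target that inhibits Akt, ran from 0 to 18.1 counts per 10000 (median 3.45), with 375 to 481 CPM across plate rows. Both p53 targets thus had a count in most cells, 94.7% for Mdm2 and 77.9% for Phlda3, and were at 0 in the rest.

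Plin2, which coats lipid droplets, was at 353 CPM (315 to 394) and ran from 0 to 14.4 counts per 10000 with a median of 1.52. Ctsd, the lysosomal protease cathepsin D, was at 365 CPM (326 to 407), and its cells ran from 0 to 15.7 counts per 10000 with a median of 3.23. Plin2 had a count in 60.2% of cells and Ctsd in 78.8%. Tnfrsf11a, the receptor RANK, was the sparsest of the 6, with 143 CPM (119 to 170), a count in 47.8% of cells and a median of 0. Its plate rows held 101 to 249.9 CPM. Gpx3, a secreted glutathione peroxidase, was at 386 CPM (347 to 430) and ran from 0 to 29.3 counts per 10000 (median 3.62), with a count in 87.6% of cells.

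Set beside the freshly isolated pool, 5 of the 6 were higher and Gpx3 was lower. The ratio of high glucose to freshly isolated was 3.43 for Mdm2 (exact conditional 95% interval 2.85 to 4.15), 8.78 for Phlda3 (5.17 to 16.2), 11.1 for Plin2 (5.79 to 24.6), 7.98 for Ctsd (4.60 to 15.1) and 20.3 for Tnfrsf11a (5.51 to 169.7). Of all 3848 genes with a mean of at least 50 CPM over both pools, 28.7% had a ratio of at least 1.5 with an interval above 1. The markers were named with results of these data known, so nothing is read from their share. Other scalings multiplied every such ratio by the same factor, 0.839 with edgeR's TMM, 0.819 with DESeq2's size factors and 3.07 with summed ERCC counts, so that with ERCC counts Mdm2 stood at 10.5, Gpx3 at 0.339 and Pax7 at 1.44 in place of 0.471. Tnfrsf11a had 2 counts in the freshly isolated pool, and its ratio was 35.7 with a minimum of 2000 counts per well. Gpx3 went against its use as a mark relative to the freshly isolated cells, with a ratio of 0.110 (0.0974 to 0.125) and 3499 CPM there. In the plate 2 pools Gpx3 was lower than in high glucose, at 94.6 CPM in low glucose and 91.4 CPM in galactose. The summed endothelial, fibro-adipogenic and smooth muscle markers had the same order of pools as Gpx3, and their part in its values was not tested. The other 5 were at 1022 and 1114 CPM for Mdm2, 311 and 310 CPM for Phlda3, 268 and 272 CPM for Plin2, 274 and 288 CPM for Ctsd and 91.1 and 99.2 CPM for Tnfrsf11a, in low glucose and galactose in that order. Medium and plate cannot be told apart in these last values.

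Detection depends on depth, so cells were also thinned to 1500 counts each, which left out 2 high glucose cells. After thinning, Mdm2 was detected in 73.9% of high glucose cells (exact binomial 95% interval 64.7% to 81.8%) and in 41.2% of freshly isolated, 74.2% of low glucose and 77.7% of galactose cells. Plin2 was detected in 27.9% of high glucose cells (19.8% to 37.2%) against 2.94% of freshly isolated cells, and Phlda3 in 44.1% (34.7% to 53.9%) against 6.86%. For Gpx3 the thinned share was 44.1% in high glucose, and it was 13.3% for low glucose and 8.26% for galactose cells, while every freshly isolated cell had a count. Gpx3 was thus seen in fewer high glucose than freshly isolated cells at equal depth, and in more of them than of the plate 2 cells.

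The genes with the most counts were those of the cytoskeleton, translation, iron storage and chaperones. After Gm42418 (37565 CPM), an annotated long noncoding RNA that overlaps ribosomal RNA sequence, came Actb (4577 CPM), the main cytoplasmic actin, and Eef1a1 (4573 CPM), which carries aminoacyl-tRNA to the ribosome. The nuclear noncoding RNA Malat1 (4128 CPM), the mitochondrial ribosomal RNA mt-Rnr2 (3790 CPM), the intermediate filament vimentin (Vim, 3609 CPM) and the ferritin heavy chain Fth1 (3138 CPM) followed. Hsp90ab1, the constitutive cytosolic Hsp90, stood at 2909 CPM, the glycolytic enzyme Pkm at 2872 CPM and the ribosomal proteins Rplp0 and Rps2 at 2840 and 2838 CPM. Cofilin (Cfl1) and the lysosomal membrane protein Lamp1 stood at 2671 and 2419 CPM. The top 20 also held mt-Cytb (2419 CPM) and 5 annotated pseudogenes or small RNAs, Gm26384, Gm8730, Gm15500, Gm10925 and Gm8355. The 20 together held 9.68% of counts.

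Among cells, the top genes differed in evenness. Actb ran from 11.1 to 137 counts per 10000 with a median of 40.5, and Hsp90ab1 from 8.05 to 65.9 with a median of 28.8. Fth1 ran from 2.24 to 94.0 with a median of 26.1, and mt-Rnr2 from 3.60 to 383 with a median of 26.7. Of 16549 genes with a count, 1978 had one in at least 57 of the 113 cells, and 27 genes, of which 17 code for protein, had one in every cell. Pseudogenes took 25.1% of counts and protein-coding genes 68.1%.

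Parent genes and their annotated copies moved together, with counts that were close in some cases and not in others. Rplp0 had 2521 counts and its copy Gm8730 had 2661, with a correlation across cells of 0.94. The chaperone Hspa8 had 950 counts, fewer than its copies Gm15459 (1869), Gm8355 (2133) and Gm6210 (1223), at correlations of 0.95, 0.94 and 0.94. Among all pairs of measured genes, 50 had a correlation of at least 0.9, and 48 of these involved a pseudogene or noncoding gene. Eef1g, Hsp90aa1 and Akr1b3, described further on, had such copies too, and Eno1 shares transcript sequence with Eno1b. Levels of genes with such copies are therefore uncertain, and pairs below were taken only from protein-coding genes that are not named as copies and that share fewer than 60 runs of 31 bases with each other in the annotated transcripts.

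Cell-to-cell variation was then separated from counting error. For each gene the count expected in a cell is the gene's share of the pool times the cell's total, and the squared coefficient of variation (CV) beyond counting is the spread around it less the spread that counting alone gives. A gene was called variable when this exceeded 3 counting SDs. Of 1691 genes with a mean of at least 1 count per cell, 672 (39.7%) were variable, and of 1211 protein-coding ones 437 (36.1%). The CV at the median protein-coding gene was 0.364. ERCC species in the same wells gave a technical reference: of 15 with a mean of at least 1 count, 0 exceeded the limit, and their squared CV ran from -0.0545 to 0.0852.

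**Figure D1:**
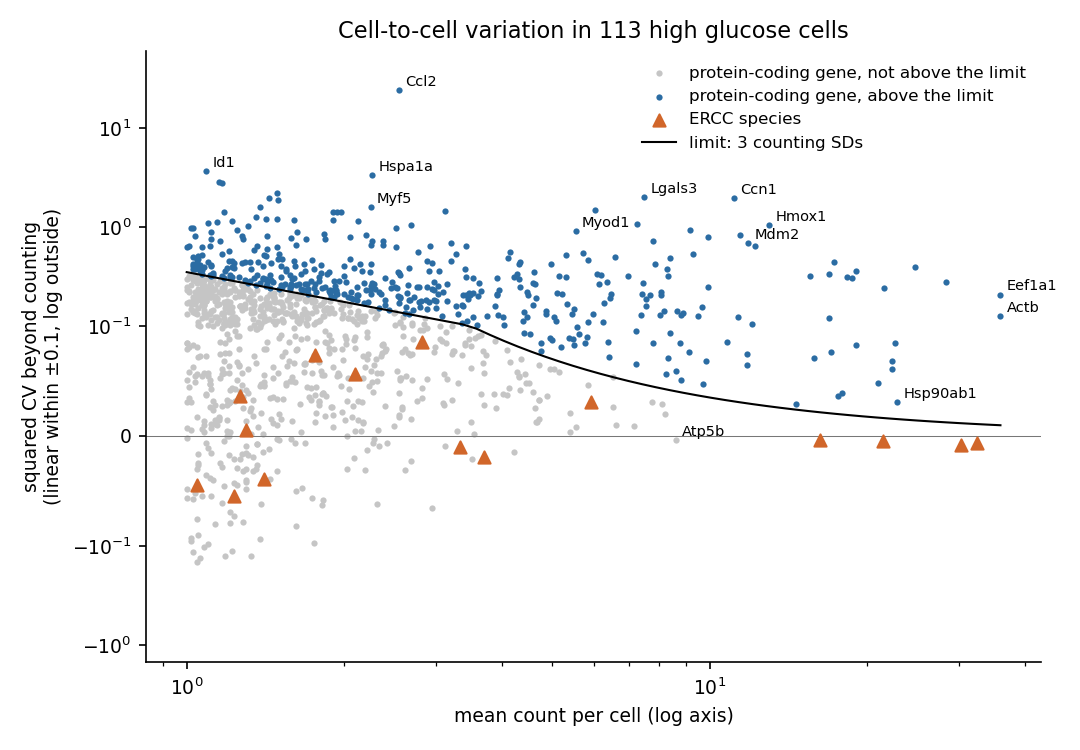
Squared CV beyond counting against mean count per cell (log axis) for protein-coding genes with a mean of at least 1 count, 113 high glucose cells. The line is the limit of 3 counting SDs. The 15 ERCC species (triangles) all lie under it, whereas Ccl2, Id1, Hspa1a, Lgals3, Ccn1, Myf5, Myod1, Mdm2 and Hmox1 lie above it and Atp5b lies at about 0.

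Plate position took little of this spread at the median gene, and more of it for some genes. With expected counts set within plate rows, 361 protein-coding genes were variable in place of 437. The CVs of 28 named genes were then 0.581 to 1.00 times their values here (median 0.950). The lowest was that of Ccl2, at 2.84 in place of 4.88. Across the 1185 named protein-coding genes with a mean of at least 1 count, the CV between the 6 plate rows at the median gene was 0.0266, against 0.363 between cells, and 95 of the genes exceeded the limit between rows. The CV at the median measured coding gene was 0.416 in freshly isolated, 0.281 in low glucose and 0.258 in galactose cells, over different gene sets because depth sets which genes are measured. Over 257 coding genes measured in all 3 cultured groups after thinning every cell to 1500 counts, it was 0.414 for high glucose, 0.295 for low glucose and 0.273 for galactose. High glucose cells had the highest value of the 3 on this measure, and medium and plate cannot be told apart.

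The 20 genes with the largest variation, taken among those that stayed above the limit without their highest cell, included chemokines, inducible regulators, chaperones and a myogenic factor. Ccl2, which attracts monocytes, had a CV of 4.88 at 324 CPM, had a count in 48.7% of cells and reached 137 counts per 10000 in 1 cell. That cell, in row L, held 53.1% of all Ccl2 counts, and without it the CV was 1.56, below the 1.72 of Hspa1a and the 1.71 of Id2 measured in the same way. Cxcl1, a neutrophil chemokine, had a CV of 1.68 at 146 CPM and 0.90 without its highest cell, which held 17.7% of its counts. No other protein-coding gene with a mean of at least 1 count had 20% of its counts in its highest cell. The angiogenic factor Vegfa had a CV of 1.19 and a count in 69.0% of cells.

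Id1 and Id2, dimerisation partners of basic helix-loop-helix factors that block myogenic factors and respond to BMP signals, had CVs of 1.92 and 1.67. Id1 had a count in 33.6% of cells and Id2 in 42.5%, and both had a median of 0. The highest 10 cells held 56.1% of the summed counts per 10000 of Id1 and 50.5% of those of Id2. Myf5 had a CV of 1.26 (0.65 in freshly isolated, 0.60 in low glucose and 0.61 in galactose cells) and Myod1 one of 0.95 (1.02, 0.56 and 0.56). The plate rows held 198 to 386 CPM of Myf5 and 576 to 813 CPM of Myod1, so that the spread lay mostly within rows, where the CVs were 1.18 and 0.94.

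Heat shock genes were also among the 20. Hspa1a and Hspa1b, which code for the inducible Hsp70, had CVs of 1.83 and 1.21. Hspa1a was at 0 in the lowest cell, 1.12 counts per 10000 at the median and 127 in the highest, and Hspa1b at 0, 5.37 and 183. These 2 genes share 1873 runs of 31 bases in their transcripts, so their separate values are uncertain. With equal weight per cell in place of summed counts their levels were 525 CPM for Hspa1a, against 288, and 1285 CPM for Hspa1b, against 767. Hspa4l, an Hsp110 family chaperone, had a CV of 1.19. Gadd45b, an inducible growth arrest and DNA damage gene, had 1.27, and the immediate early gene Ier3 1.21.

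Other genes of the 20 had varied roles. Lgals3, the lectin galectin-3, had a CV of 1.41 at 953 CPM, from 0 to 59.0 counts per 10000 with a median of 4.13. Ccn1, a matricellular protein and YAP target, had a CV of 1.39 at 1414 CPM, from 0 to 103 with a median of 8.62, and Amotl2, another YAP target, had 1.12. Lgals3 and Ccn1 had the most counts of the 20, 846 and 1255, so their spread is the best measured. The imprinted gene Peg3 had a CV of 1.37, the fibrillar collagen Col5a2 1.20, the interferon-induced membrane protein Ifitm3 1.10, Plcxd2 1.19 and the decoy receptor Tnfrsf22 1.40. Tnfrsf22 shares 1033 runs of 31 bases with Tnfrsf23. The 20 genes had their highest value in 14 different cells, and no cell was highest for more than 3 of them.

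**Figure D2:**
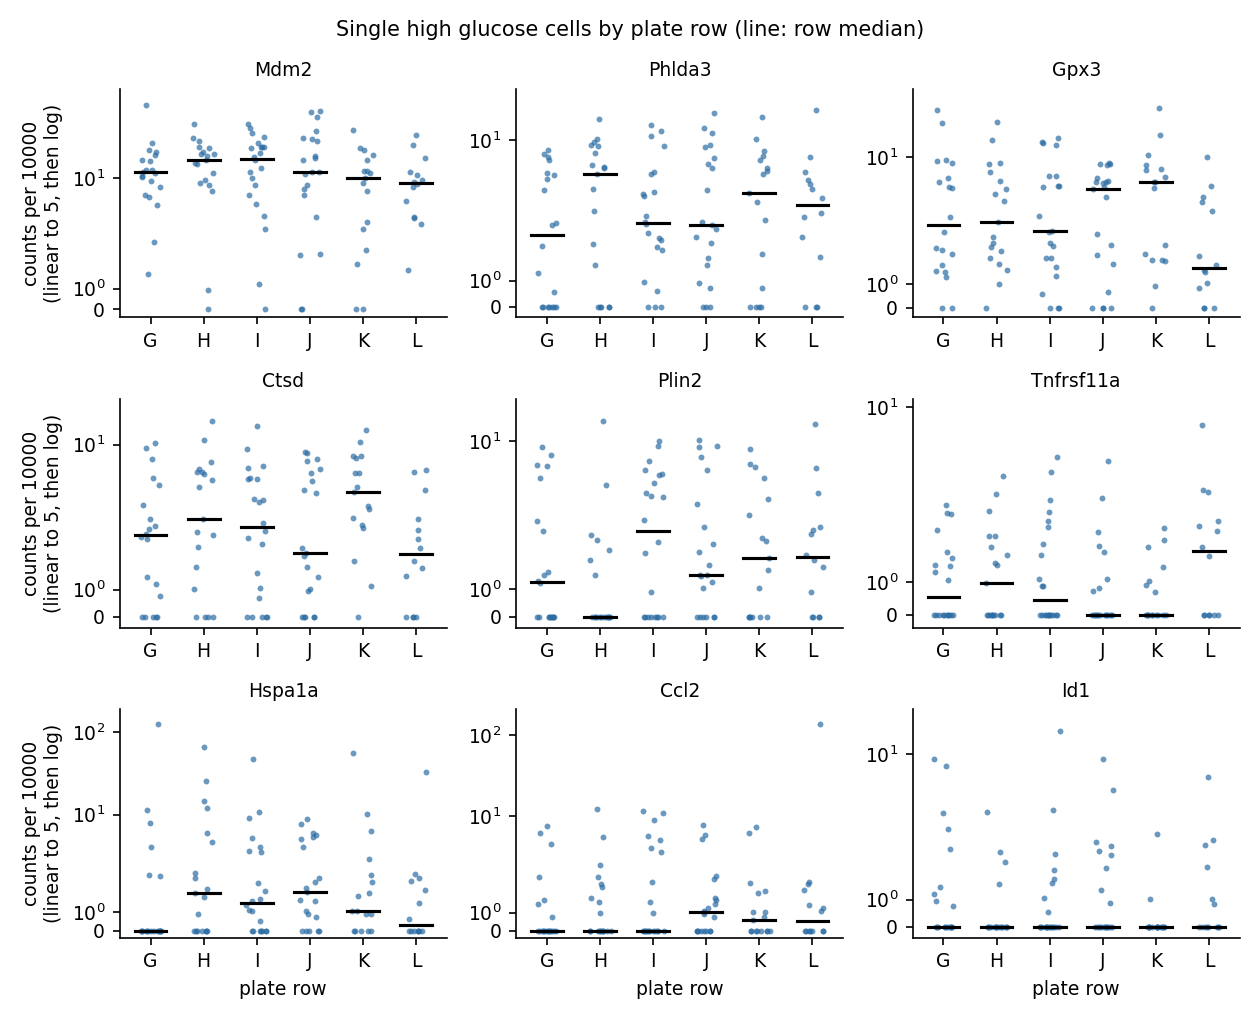
Counts per 10000 in single high glucose cells by plate row for the 6 given markers and for Hspa1a, Ccl2 and Id1 (axis linear to 5, then logarithmic). Each point is a cell and each line a row median. The highest Ccl2 cell, at 137, stands in row L, and the medians of Id1 are 0 in all 6 rows.

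Some abundant genes were even across cells. Of 116 named protein-coding genes with a mean of at least 5 counts per cell, 13 did not exceed the limit. Atp5b, the beta subunit of ATP synthase, was among them with a squared CV of -0.0035 against a limit of 0.040, and ran from 0 to 28.8 counts per 10000 with a median of 10.3. Trp53, which codes for p53, ran from 0 to 22.0 with a median of 8.10 and had a CV of 0.10, well under the 0.83 of its target Mdm2. The chaperonin subunits Cct2, Cct3 and Cct4 had CVs of 0.18, 0.15 and 0.16, Cdc42 one of 0.059 and Trim28 one of 0.092, all under the limit. Hsp90ab1, Pabpc1, Ncl and Npm1 exceeded it with CVs of only 0.18, 0.17, 0.19 and 0.20, since their means of 14.6 to 22.8 counts per cell put the limit lower.

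The share of measured members that were variable differed between gene groups, and it is to be read beside the 36.1% of all measured protein-coding genes. The groups also differ in abundance, and abundant genes exceeded the limit more often. Of 116 named protein-coding genes with a mean of at least 5 counts, 103 were variable, so 36.1% is a low reference for groups of abundant genes. All 14 measured antioxidant and metallothionein genes were variable (CV at the median member 0.60), among them Fth1 (0.62), Hmox1 (1.02), which degrades haem, and the metallothioneins Mt1 (0.60) and Mt2 (0.99). All 7 measured genes of the integrated stress response were variable, including Atf4 (0.32), its central transcription factor, Ppp1r15a (0.73), the phosphatase subunit that reverses the response, and the amino acid transporter subunit Slc3a2 (0.56). All 8 measured immediate early genes were variable, with CVs of 0.47 for Fosl1, 0.65 for Myc and 0.46 for Klf6. All 7 measured chemokine and NF-kB genes were variable, among them Csf1 (1.04), Tnfrsf12a (0.41) and Ccl2.

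Of 12 measured p53 targets 9 were variable, where the share over all measured protein-coding genes was 36.1%, led in level by Cdkn1a (CV 0.56), the cell cycle inhibitor p21, Mdm2 (0.83) and the kinase Plk2 (0.84), whereas Bax, Zmat3 and Aen were not. Cdkn1a had a count in every cell and ran from 2.77 to 91.3 counts per 10000 with a median of 18.6. Unlike Mdm2 and Phlda3, it was not higher than in the freshly isolated pool, with a ratio of 0.915, or 2.81 with summed ERCC counts. The p53 targets together summed to 7304 CPM, against 4481 CPM in that pool. Of 9 measured heat shock chaperones 7 were variable and Hspa4 and Hspe1 were not. In glycolysis 4 of 6 were variable, namely Pkm (0.29), Eno1 (0.36), Pgk1 (0.46) and Ldha (0.52). All 3 measured hypoxia genes, Ndrg1, Vegfa and Bnip3l, and all 3 measured BMP-responsive genes, Id1, Id2 and Smad7, were variable.

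In the nuclear-encoded respiratory chain 3 of 11 were variable, a share near the 36.1% of all measured protein-coding genes, and Atp5b, Cycs and Cyc1 had estimates at or under 0. Cytosolic ribosomal proteins had 17 of 28 above the limit but at a small size, with CVs of 0.26 for Rplp0, 0.25 for Rps2 and 0.29 at the median member. Translation factors had 8 of 14 above it, with 0.46 for Eef1a1 and 0.35 for Eef2. Of 16 measured actin cytoskeleton genes 11 were variable, including Actb (0.36), Vim (0.53) and Cfl1 (0.22), and of 14 lysosome, autophagy and lipid droplet genes 8. Of 6 measured histone acetylation genes 2 were variable, also near that share, among them the acetyl-lysine reader Brd2 (0.52), whereas the acetyltransferase genes Crebbp and Ep300 were not.

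DNA replication and mitosis genes were sparse. Of 21 S phase genes only Pcna, the sliding clamp of DNA polymerase, had a mean of at least 1 count, at 238 CPM with a CV of 0.59, and the list summed to 644 CPM. Of 23 genes of G2 and mitosis only Tubb4b (544 CPM) and Gtse1 (145 CPM), which is also a p53 target, reached that mean. Ccnd1, the G1 cyclin, stood at 98.0 CPM and Cdkn1a at 1983 CPM.

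Some of the variation moved with the total count of a cell. For each of 447 named protein-coding genes with a mean of at least 2 counts, the residual, which is the count less its expected value on the scale of its own spread, was correlated across the 113 cells with the log of the cell's total count. The total enters both sides, so these values are descriptions. They had a median of 0.0056, and 44 genes were at -0.3 or below and 20 at 0.3 or above. The total itself had a correlation of 0.895 with gene counts per ERCC count and of 0.214 with ERCC counts, both on log scales.

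Genes of varied roles took a larger share in cells with fewer counts. The lowest values were mt-Cytb (-0.56), Ppp1r15a (-0.55), the RNA-binding protein gene Hnrnpc (-0.54), the polyubiquitin gene Ubb (-0.50), Polr2a (-0.49), the largest subunit of RNA polymerase II, and Cdkn1a (-0.46). The endoplasmic reticulum chaperone Hspa5 had -0.45, Hsp90aa1 -0.45 and Gpx3 -0.44. At the other end stood the elongation factor subunit Eef1g (0.45), the actin-binding Pfn1 (0.43), Plin2 (0.42), Eef2 (0.40), Rpl10 (0.39), Eef1a1 (0.39), Vim (0.36), the chromatin protein gene Hmga1 (0.35) and the cytokine gene Csf1 (0.34). Of the given markers, Plin2 thus lay at the upper end and Gpx3 at the lower end, while Mdm2 (0.11), Phlda3 (0.0056) and Ctsd (-0.048) lay near 0.

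**Figure D3:**
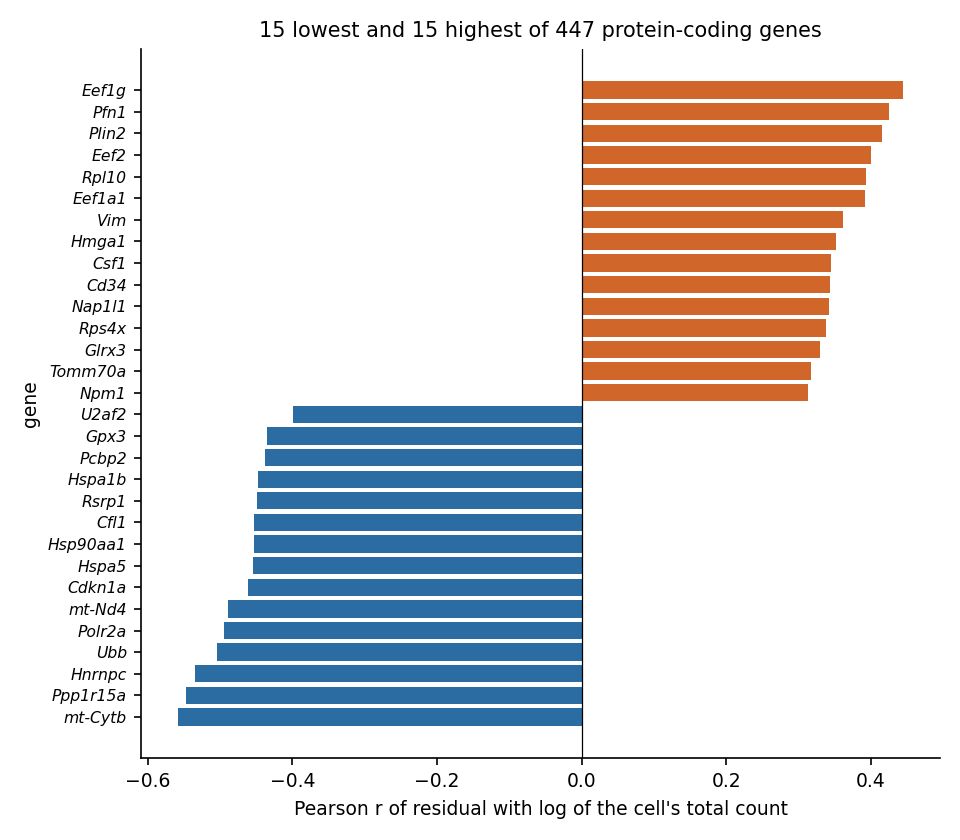
Correlation of the residual of a gene with the log of the cell's total count for the 15 lowest and 15 highest of 447 protein-coding genes, 113 high glucose cells. The bars run from -0.56 for mt-Cytb to 0.45 for Eef1g.

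Gene pairs that varied together were sought among the 702 genes with a mean of at least 2 counts. Of 246051 pairs, 1004 (0.408%) had a Pearson correlation of residuals of at least 0.5, and 913 of these involved a pseudogene or noncoding gene. Among the 96571 pairs of nuclear protein-coding genes without shared sequence, 39 (0.0404%) reached 0.5, the median was 0.0086 and 1 pair was at -0.5 or below. The 36 pairs of ERCC species with a mean of at least 2 counts ran from -0.34 to 0.15, but they are too few to show a share as small as 0.0404%. Points are cells of 1 sample that share depth and preparation, so no p is given.

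Transcripts of the mitochondrial genome were the tightest group, and they filled 19 of the 20 highest protein-coding pairs. The complex I and complex III genes mt-Nd4 and mt-Cytb had a correlation of 0.89, mt-Co1 and mt-Co2 of complex IV 0.87, and mt-Nd1 and mt-Nd2 0.86. Over 36 pairs of 9 measured mitochondrial genes the median was 0.74, with 0.63 in freshly isolated, 0.66 in low glucose and 0.56 in galactose cells. In single cells mt-Cytb ran from 1.43 to 199.5 counts per 10000 with a median of 24.3, and mt-Nd4 from 3.94 to 156 with a median of 22.9. Annotated pseudogene copies followed them, as did Gm13340, whose 1152 counts were correlated with the 1290 of mt-Co1 at 0.98.

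The 39 nuclear pairs involved 34 genes, and 20 of these genes were joined in 1 group. Its centre was Ppp1r15a, with 10 of the pairs, followed by Hsp90aa1 with 6 and Polr2a with 5. These counts depend on the cell's total. With the log of the total held constant, Brd2 (0.54) was the only Ppp1r15a partner in these pairs still at 0.5 or above. For Hsp90aa1 the only such partner was Hspa8 (0.57), and the highest value for Polr2a was 0.496, with Hspa5. Amino acid transport gave the highest pair, with 0.67 for Slc3a2, the heavy chain shared by several amino acid exchangers, and Slc38a2, a glutamine and neutral amino acid transporter. Slc3a2 ran from 0 to 53.3 counts per 10000 with a median of 6.33 and Slc38a2 from 0 to 74.0 with a median of 8.87. Both are known targets of Atf4.

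Ppp1r15a, at 0 to 44.2 counts per 10000 with a median of 7.30, was correlated at 0.62 with the acetyl-lysine reader Brd2, at 0.59 with Cdkn1a, at 0.58 with Polr2a, at 0.58 with Hsp90aa1 and at 0.56 with Hspa5. Gadd45b, too sparse for that set, had its highest correlation with Ppp1r15a too, at 0.56. Among chaperones, Hspa8 and Hsp90aa1 were at 0.57, and Hspa5 was at 0.61 with Polr2a. Hsp90aa1, the inducible Hsp90, ran from 3.22 to 127 counts per 10000 with a median of 21.8, while the constitutive Hsp90ab1 was in none of the 39 pairs.

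Smaller groups stood apart from this one. Akr1b3, the aldose reductase that turns glucose into sorbitol, and Hmox1 were correlated at 0.59. Akr1b3 ran from 0 to 67.5 counts per 10000 with a median of 7.64, and Hmox1 from 0 to 98.3 with a median of 9.10. Plate rows held 980 to 1450 CPM of Akr1b3 and 699.8 to 2316 CPM of Hmox1, and the pair was at 0.42 without the highest cell of each gene. The translation genes Eef1g, Eef2 and Rpl10 formed a trio (0.51 for Rpl10 and Eef1g, 0.50 for Eef2 and Eef1g). The cyclin G1 gene Ccng1, a p53 target, was paired with the phosphatase subunit Ppp2cb (0.51), and Sp1 with Son (0.51). Without the highest cell of each gene these values were 0.32 for Ccng1 and Ppp2cb and 0.48 for Sp1 and Son. Mt1 and Mt2, neighbours that code for the metal-binding metallothioneins, were at 0.56. A group of Ccl2, Marcks, Mt1, Mt2 and Rpl41 was linked through Mt2 and Ccl2 (0.52), a value of 0.30 without the highest cell of each gene.

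**Figure D4:**
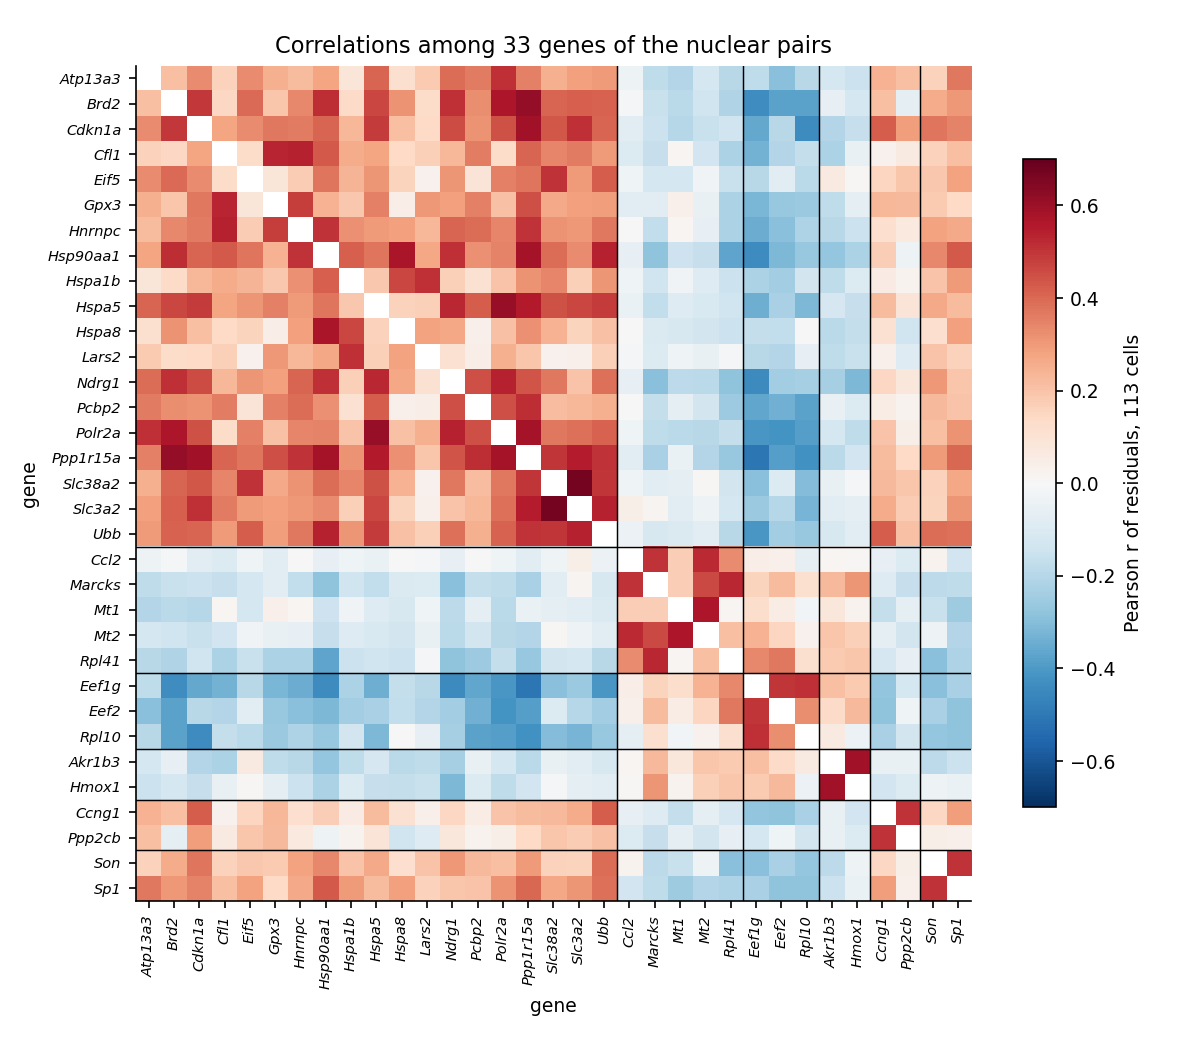
Pearson correlation of residuals across 113 high glucose cells among 33 of the 34 genes of the 39 nuclear pairs, ordered by group (black lines). The group around Ppp1r15a is positive throughout most of its block and negative against Eef1g, Eef2 and Rpl10, where the lowest value is -0.51 for Ppp1r15a and Eef1g.

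The pairs also moved with the total count of a cell. In 32 of the 39 both genes had a negative correlation with the cell's total, in 7 both had a positive one and in 0 the signs differed. With the log of the total held constant, all 39 kept a value of at least 0.3 (0.30 to 0.63, median 0.44 against 0.53), but only 9 of them stayed at 0.5 or above. The values given the total were 0.63 for Slc3a2 and Slc38a2, 0.57 for Hspa8 and Hsp90aa1, 0.56 for Akr1b3 and Hmox1, 0.56 for Mt1 and Mt2 and 0.54 for Brd2 and Ppp1r15a, against 0.45 for Cdkn1a and Ppp1r15a. Rank correlations were 0.45 for Slc3a2 and Slc38a2, 0.32 for Hspa8 and Hsp90aa1 and 0.27 for Akr1b3 and Hmox1. They were 0.35 for Mt1 and Mt2, 0.47 for Brd2 and Ppp1r15a and 0.63 for Cdkn1a and Ppp1r15a. Over all nuclear pairs 30 had a rank correlation of at least 0.5, a count that includes pairs not among the 39. Without the highest cell of either gene 13 of the 39 stayed at 0.5 or above and all 39 at 0.3 or above. With expected counts set within plate rows 30 stayed at 0.5 or above. After every cell was thinned to 2000 counts, only 6 nuclear pairs reached 0.5.

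The same pairs were looked up in the other conditions, whose cells took no part in choosing them. Their median was 0.47 in low glucose and 0.39 in galactose cells, where the median of all 96571 nuclear pairs was 0.024 and 0.019, and it was 0.026 in freshly isolated cells. At least 0.3 was reached by 31 of 39 in low glucose, 26 in galactose and 4 in freshly isolated cells, against 5.32%, 5.17% and 0.643% of all nuclear pairs there. Freshly isolated cells held a median of 2536 counts per cell against 6747 in high glucose, and the part of depth in this contrast was not tested.

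Named pairs differed in this respect. Ppp1r15a was correlated with Polr2a at 0.77 in low glucose and 0.69 in galactose cells and with Cdkn1a at 0.73 and 0.63, but at 0.074 and 0.077 in freshly isolated cells. Hspa8 and Hsp90aa1 were at 0.51, 0.49 and 0.33 in freshly isolated, low glucose and galactose cells, and Mt1 and Mt2 at 0.27, 0.54 and 0.53. Akr1b3 and Hmox1 stood at -0.15, -0.043 and 0.33, and Gpx3 and Cfl1, at 0.53 in high glucose, at -0.20, 0.084 and -0.025. No test of these differences was run.

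**Figure D5:**
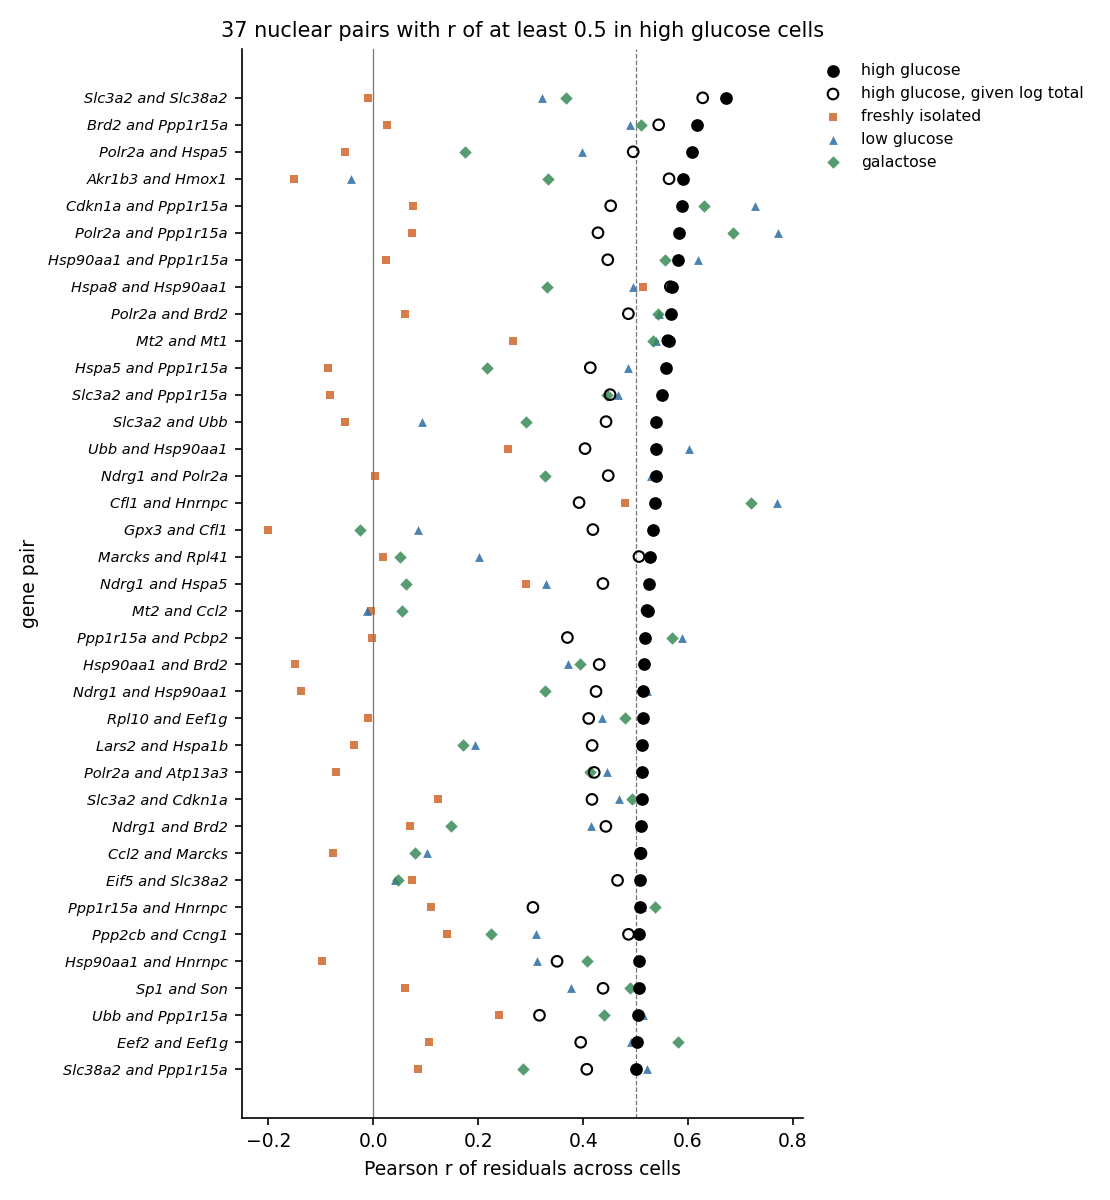
Pearson correlation of residuals for 37 of the 39 nuclear pairs in high glucose cells (filled circles), in the same cells given the log total (open circles), and in freshly isolated (squares), low glucose (triangles) and galactose cells (diamonds). The dashed line marks 0.5. Medians over all 39 are 0.53, 0.44, 0.026, 0.47 and 0.39 in that order.

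Promoters of gene pairs and of members of the groups described above are shown for their sequence, read from RefSeq on the GRCm38.p6 build, 250 bases before to 50 after the annotated start. Capitals mark matches to a motif on either strand. For Mt1 (chr8:94178839-94179138, plus strand) and Mt2 (chr8:94172368-94172667, plus strand), the pair at 0.56, they mark the metal response element core TGCACNC or TGCGCNC, which was found 3 times in Mt1 and 4 times in Mt2 and at least once in 25.7% of all 32851 promoters.
Mt1: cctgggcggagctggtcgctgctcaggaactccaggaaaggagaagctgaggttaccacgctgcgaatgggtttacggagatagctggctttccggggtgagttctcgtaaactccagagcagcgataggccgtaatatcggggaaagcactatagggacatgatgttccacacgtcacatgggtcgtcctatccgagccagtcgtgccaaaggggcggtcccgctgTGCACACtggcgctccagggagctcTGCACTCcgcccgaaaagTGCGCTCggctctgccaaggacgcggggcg
Mt2: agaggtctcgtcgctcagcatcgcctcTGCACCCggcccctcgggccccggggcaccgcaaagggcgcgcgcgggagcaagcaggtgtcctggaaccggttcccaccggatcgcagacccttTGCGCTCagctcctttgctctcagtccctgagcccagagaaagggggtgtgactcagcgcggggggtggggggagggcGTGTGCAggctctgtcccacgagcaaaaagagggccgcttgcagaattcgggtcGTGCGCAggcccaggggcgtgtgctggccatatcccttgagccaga
For Hspa1a (chr17:34972107-34972406, minus strand) and Hspa1b (chr17:34959189-34959488, minus strand) they mark a heat shock element, GAANNTTC or TTCNNGAA, found once in each and in 15.1% of all promoters. The 2 windows are identical at 296 of 300 positions, and the genes were correlated at 0.80 with their shared transcript sequence.
Hspa1a: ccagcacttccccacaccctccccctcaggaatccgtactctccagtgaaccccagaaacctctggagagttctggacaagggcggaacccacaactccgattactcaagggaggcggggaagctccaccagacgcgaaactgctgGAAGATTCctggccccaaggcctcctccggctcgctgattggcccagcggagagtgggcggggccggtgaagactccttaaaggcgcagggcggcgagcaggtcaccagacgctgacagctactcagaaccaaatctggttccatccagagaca
Hspa1b: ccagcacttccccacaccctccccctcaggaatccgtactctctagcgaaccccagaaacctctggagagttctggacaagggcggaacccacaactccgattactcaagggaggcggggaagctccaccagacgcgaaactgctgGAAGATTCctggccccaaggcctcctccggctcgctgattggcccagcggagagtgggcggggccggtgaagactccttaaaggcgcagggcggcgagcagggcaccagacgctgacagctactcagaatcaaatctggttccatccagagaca
For Ppp1r15a (chr7:45526219-45526518, minus strand), the centre of the largest group, they mark the cyclic AMP response element TGACGTCA, found once and in 1.79% of all promoters.
Ppp1r15a: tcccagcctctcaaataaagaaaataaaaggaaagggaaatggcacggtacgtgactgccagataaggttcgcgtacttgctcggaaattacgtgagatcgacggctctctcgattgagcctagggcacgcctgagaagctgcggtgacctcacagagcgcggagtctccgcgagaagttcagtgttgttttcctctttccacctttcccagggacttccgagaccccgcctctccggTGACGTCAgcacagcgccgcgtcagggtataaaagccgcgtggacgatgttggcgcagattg
For the p53 targets Mdm2 (chr10:117710709-117711008, minus strand), a given marker that is in none of the 39 pairs, and Ccng1 (chr11:40755237-40755536, minus strand), which was paired with Ppp2cb, they mark a p53 half-site, found once in each and in 8.36% of all promoters.
Mdm2: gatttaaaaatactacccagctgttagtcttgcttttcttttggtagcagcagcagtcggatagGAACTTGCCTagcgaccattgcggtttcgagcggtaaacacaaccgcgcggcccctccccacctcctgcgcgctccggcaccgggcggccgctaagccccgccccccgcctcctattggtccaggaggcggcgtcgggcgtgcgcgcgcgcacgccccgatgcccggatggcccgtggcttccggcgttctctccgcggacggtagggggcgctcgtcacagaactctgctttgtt
Ccng1: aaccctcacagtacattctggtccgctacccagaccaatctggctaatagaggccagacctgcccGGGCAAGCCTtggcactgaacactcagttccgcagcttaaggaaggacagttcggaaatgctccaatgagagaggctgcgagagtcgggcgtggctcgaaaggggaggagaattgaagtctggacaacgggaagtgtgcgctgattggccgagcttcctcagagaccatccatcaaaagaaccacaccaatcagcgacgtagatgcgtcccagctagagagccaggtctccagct
Of 34 genes in the nuclear pairs, 23 had a promoter in the table, and 2 of these held the cyclic AMP response element, 3 a heat shock element, 6 a metal response element core and 2 a p53 half-site, Ccng1 and Cdkn1a. A match is a description of letters in this window and no evidence of binding.

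In each of the 5 lowest nuclear pairs one gene was Ppp1r15a, Eef1a1 or Eef1g. Ppp1r15a and Eef1g were at -0.51, Ppp1r15a and Hmga1 at -0.49, the kinase gene Map2k3 and Eef1a1 at -0.46, the splicing factor gene Srsf2 and Eef1a1 at -0.46 and the sialomucin gene Cd164 and Eef1g at -0.46. Given the log total these were -0.35, -0.38, -0.37, -0.41 and -0.37. Their values were -0.49, -0.092, -0.47, -0.37 and -0.24 in low glucose cells in the same order, where Ppp1r15a and Hmga1 differed most from the value in high glucose.

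Within gene groups, the median correlation was 0.39 over 14 pairs of 6 heat shock chaperones and 0.35 over 10 pairs of 5 integrated stress response genes, against 0.0072 over all 99672 protein-coding pairs without shared sequence. Given the log total these medians were 0.30 and 0.31. It was 0.20 over 253 pairs of 23 ribosomal proteins, 0.14 over 10 pairs of 5 glycolysis genes and 0.13 over 10 pairs of 5 p53 targets. It lay near 0 for antioxidants and metallothioneins (-0.0065 over 21 pairs), immediate early genes (0.059 over 21 pairs) and translation factors (0.026 over 78 pairs). The antioxidant value rests on 7 of the 14 variable members, those with a mean of at least 2 counts, and includes Mt1 and Mt2 at 0.56.

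The genes that varied most like the given markers came from varied groups. Mdm2 and Phlda3, both p53 targets, had each other as first partner at 0.45. The pair stood at 0.40 in low glucose, 0.59 in galactose and 0.023 in freshly isolated cells. Phlda3 was sparse in freshly isolated cells, and the part of this in the last value was not tested. The next for Mdm2 was the splicing factor gene Rbm39 (0.33). Plin2 was nearest to Fth1 (0.47), Eef1a1 (0.38) and Plk2 (0.38), and the first of these was 0.31 in low glucose and 0.32 in galactose cells. Tnfrsf11a, whose mean of 1.12 counts per cell is under the minimum of 2 used to count pairs, was nearest to Pfn1 (0.56). That value stood at 0.34 and 0.35 there and at 0.51 without the highest cells. Ctsd had no partner above 0.34, the value for the nuclear export receptor gene Xpo1 and for Brd2.

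Gpx3 had the strongest partners of the 6, mt-Nd4 (0.67), mt-Cytb (0.62) and Cfl1 (0.53). For mt-Nd4 the value was 0.61 without the highest cells, and it was 0.17 in low glucose, 0.11 in galactose and -0.22 in freshly isolated cells. Gpx3, mt-Nd4, mt-Cytb and Cfl1 all had a larger share in cells with fewer counts (-0.44, -0.49, -0.56 and -0.45).

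For Myod1 the first partner was the membrane trafficking gene Vapa at 0.40, a value of 0.16 without the highest cells, followed by the phosphatase gene Ptpn12 (0.35). Id2, whose product blocks Myod1, had Myod1 as its own first partner at 0.46, and 0.57 without the highest cells. That pair was at 0.45 in galactose, 0.19 in low glucose and -0.15 in freshly isolated cells. The freshly isolated pool held only 27 counts of Id2, and the part of this in the last value was not tested. Myf5 and Col5a2 were each nearest to the YAP target Ankrd1 (0.38 and 0.49), and Id1 to Csf1 (0.45).

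Some of these partners rested on single cells. Ccl2 and Cxcl1 were correlated at 0.71 and had the same highest cell, in row L. Without it the value was -0.051, so that the relation in high glucose rests on that cell. The correlation of the pair was 0.85 in galactose cells and 0.31 in low glucose cells. Neither of these 2 values was measured without the highest cell. Cxcl1 had a CV of 3.67 in galactose and 1.59 in low glucose cells, so single cells may weigh there too. The link of Ccl2 to Nfkbia, the NF-kB inhibitor, was 0.42 with all cells and 0.023 without the highest of each gene. Amotl2 and Slc3a2 went from 0.60 to 0.39, and Tnfrsf22 and Hsp90aa1 from 0.55 to 0.35.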

How the data were processed

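Gene counts of single wells from 2 plates were used as deposited, with each condition on only 1 plate. Per the labels' protocols, the deposited counts came from a modified CEL-Seq2 procedure. The aligner, genome build, annotation and handling of molecular identifiers were not given in the sources used here. Among tools, the submitters' processing notes list edgeR, with neither its version nor its use. Of 21216 gene identifiers, 99.6% had a symbol. ERCC counts were kept out of totals.

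Counts were analysed with Python 3.11.15, NumPy 2.4.6, pandas 2.3.3 and SciPy 1.17.1, and scaling factors came from edgeR 4.0.16 and DESeq2 1.42.0. Variation and pair measures were checked on simulated data. Levels carry exact Poisson intervals at the 95% level, ratios of pools exact conditional intervals and shares exact binomial intervals, all for counting error only. Variation was measured for genes with a mean of at least 1 count per cell. Pairs were counted for genes with at least 2. Nearest partners were also sought for named genes under that mean. These included Id1, Tnfrsf11a, Cxcl1, Id2, Amotl2, Gadd45b, Tnfrsf22 and Col5a2, with means from 1.09 for Id1 to 1.94 for Col5a2. Cell totals of 868 to 18844 counts limit both.

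The text names the given markers, the 20 genes with the most counts, the 20 most and the 15 least variable genes, the 20 highest and 5 lowest pairs with the other pairs at 0.5 or above, members of 35 gene lists and the nearest partners of these genes. Members and lists were chosen with earlier results of these data known. The limit of 60 shared runs, the restriction to nuclear genes and the naming of further pair and list members were chosen after their values were seen. Alternatives changed the wells kept, the totals, the depth, the limits and the correlation measure. Some genes that enter the counts are not reported here by name, and 1 gene with its 2 pairs is left out of the figures. No column belonged to a sample of another series (0 columns).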

Additional observations from a re-analysis of the deposited data

How the results depend on the processing

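Counts of calls followed depth and limits. The 672 variable genes became 428 with a mean of at least 2 counts, 404 with a limit of 5 counting SDs and 218 with every cell thinned to 2000 counts, and the 437 protein-coding ones became 265, 246 and 135. Pairs at 0.5 or above went from 1004 to 339 with a mean of at least 5 counts and to 221 after thinning. The 39 nuclear pairs became 19 with that mean, 6 after thinning, 25 without the highest cell of either gene and 10 given the log of the total, a count chosen after seeing the data that includes pairs not among the 39. Fewer genes are tested with a higher mean and fewer counts remain after thinning, and the cause of the other changes was not tested. These 4 counts stayed within 1.5 times of their values with mitochondrial or the 20 most abundant genes out of the total, a minimum of 2000 counts per well (108 cells), expected counts within plate rows and, both chosen after seeing the data, protein-coding totals and the 109 cells without wells holding markers of another type.

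Ratios to the freshly isolated pool that crossed 1 with summed ERCC counts were Pax7 (0.471 to 1.44), Myf5 (0.726 to 2.23) and Cdkn1a (0.915 to 2.81). The ratio of Cdkn1a was also above 1, at 1.17, with equal weight per cell. The correlations of Mdm2 and Phlda3 with Rbm39 changed sign after thinning (-0.026 and -0.025). So did that of Cxcl1 and Ccl2 (-0.051 without their shared highest cell). Of 124 named correlations, thinning moved 88 by at least 0.1 without a change of sign, rank correlation 66 and the highest cells 42. With equal weight per cell 38 of 49 levels moved beyond their counting interval, by factors of 0.739 to 1.82. No paired analysis was possible because each condition was on only 1 plate, without a replicate. Leaving out a replicate was not possible for the same reason.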
